A study of Mus musculus with 48 samples.

Results

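The transcripts of 32 genes for synaptic vesicles and the postsynaptic scaffold were followed in sorted cells of the mouse brain, across 48 libraries that form 16 groups of 3. The genes were taken by symbol from the 24421 gene entries of 6 tables of normalised read counts, and 32 of 32 were listed. They comprise 9 genes for SNARE proteins, synaptotagmins and complexins, 8 for vesicle membrane proteins and cargo transporters, 4 for the active zone, 8 for the postsynaptic scaffold and its kinases, and 3 for adhesion across the cleft.

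In 14 groups the mice had the genotype Aldh1l1-GFP, in which a green fluorescent protein (GFP) marks cells that use the promoter of Aldh1l1, a folate enzyme gene of astrocytes. Of these, 6 groups carry the label Gq-CNO and 6 the label Gq-Saline. The first part of those labels stands for an engineered receptor signalling through Gq, which clozapine-N-oxide (CNO) activates. Each of the 6 pairs is either "mCh neurons" (sorted on the red protein mCherry) or "GFP astrocytes", from olfactory bulb (OB), cortex (CX) or hippocampus (HP). Neither the cells that bear this receptor nor the promoter driving it are named in the labels. The other two groups of this genotype, CNO-control and untreated, are olfactory bulb GFP astrocytes. The last pair came from Slc22a3-FF mice, in which Slc22a3, a transporter of organic cations and monoamines, is floxed in both groups. It holds olfactory bulb "mCh astrocytes" labelled Slc22a3-cKO (Gfap-Cre) or control (Gfap-mCh), here called the flox control. The Gfap promoter is active in astrocytes and also in neural stem cells. Ages are not given in the sources used here, and no label says whether each library is its own animal. The p-values therefore reflect the spread among these libraries, which may be technical.

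At a synapse, vesicles filled with transmitter dock at the active zone and fuse with the membrane when calcium binds a synaptotagmin and the SNARE proteins zip together. Across the cleft, scaffold proteins hold receptors beside the calcium-dependent kinase CaMKII, and neurexins and neuroligins join the membranes on either side. Most of these genes are transcribed mainly in neurons. Some, among them Syt11 and the neuroligin genes, are also transcribed in astrocytes. The olfactory bulb is rich in GABAergic granule and periglomerular interneurons, whereas excitatory pyramidal cells dominate the cortex and the hippocampal fields.

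RefSeq promoter windows of build GRCm38.p6 were found for 25 of the 32 genes. Those shown are the 250 bases before the start of 4 genes that separated the olfactory bulb from the cortex in the mCh neuron sorts (Nrgn, Cplx2 and Rims1 lower in the bulb, Syt1 higher), and of Syt11, the member that was lower in the mCh neuron than in the GFP astrocyte sorts. The Nrgn window lies at chr9:37552746-37552995 on the minus strand, Cplx2 at chr13:54302306-54302555 on the plus strand, and Rims1 at chr1:22806159-22806408 on the minus strand. The Syt1 window, for the first of 2 listed starts, lies at chr10:109010976-109011225 and the Syt11 window at chr3:88772600-88772849, both on the minus strand. Sequences read 5′ to 3′ along the gene, and capitals mark the motifs found.
Nrgn: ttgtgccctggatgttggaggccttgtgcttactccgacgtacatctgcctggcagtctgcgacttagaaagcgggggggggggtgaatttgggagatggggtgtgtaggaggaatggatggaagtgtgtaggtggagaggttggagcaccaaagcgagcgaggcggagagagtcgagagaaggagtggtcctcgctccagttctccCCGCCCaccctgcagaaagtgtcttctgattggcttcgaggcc
Cplx2: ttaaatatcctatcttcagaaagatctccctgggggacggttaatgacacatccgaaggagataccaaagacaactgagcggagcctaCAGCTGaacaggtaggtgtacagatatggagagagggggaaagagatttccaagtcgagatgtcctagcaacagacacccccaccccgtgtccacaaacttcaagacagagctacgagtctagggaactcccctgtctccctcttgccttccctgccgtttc
Rims1: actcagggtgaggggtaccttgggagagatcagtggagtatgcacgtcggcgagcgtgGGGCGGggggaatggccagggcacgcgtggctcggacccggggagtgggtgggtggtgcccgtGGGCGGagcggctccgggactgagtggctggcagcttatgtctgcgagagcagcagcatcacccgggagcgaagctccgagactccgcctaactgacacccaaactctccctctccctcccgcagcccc
Syt1: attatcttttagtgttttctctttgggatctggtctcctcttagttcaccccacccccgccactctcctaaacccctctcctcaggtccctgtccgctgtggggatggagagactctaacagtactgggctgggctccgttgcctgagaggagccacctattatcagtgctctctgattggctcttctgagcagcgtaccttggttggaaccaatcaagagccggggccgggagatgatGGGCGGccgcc
Syt11: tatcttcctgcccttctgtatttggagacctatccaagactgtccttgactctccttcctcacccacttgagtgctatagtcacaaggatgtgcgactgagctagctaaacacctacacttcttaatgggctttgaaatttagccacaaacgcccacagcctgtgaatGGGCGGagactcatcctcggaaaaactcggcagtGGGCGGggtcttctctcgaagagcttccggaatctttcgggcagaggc

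The windows were searched on both strands for the letters TGACGTCA (a cAMP response element), TTCAGCACC and GGACAGC (the left and right parts of the RE1 silencer site), the E-box letters CAGCTG and CACGTG, GCGTGGGCG (an Egr site) and GGGCGG (a GC box), none of which contains another. GGGCGG was present in 18 of the 25 windows (72%), against 32.94% of 27025 promoter windows of the same length. Of the windows shown, Nrgn held it once, beginning 43 bases before the start. Rims1 held it at 129 and 192 bases before the start, Syt11 at 48 and 82, and Syt1 at 11. CAGCTG was present in Cplx1, Cplx2, Stx1a and Sv2a (12.77% of all windows), in Cplx2 at 162 bases before the start. TGACGTCA and TTCAGCACC were both found in Syn1 (1.624% and 0.2849% of all windows), and GCGTGGGCG in Shank3 and Unc13a (0.5402%). GGACAGC and CACGTG were found in 0 of the 25, against 5.291% and 6.046% of all windows. The median GC content of the 25 windows was 58.8%, with a range of 45.6% to 83.2%, against 52% over all windows. These matches describe letters in a window and are not binding sites.

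Levels are given as RPM, a gene's reads per 1000000 gene reads (1 M) of its library. Depth ran from 0.228 to 24.7 M reads, with the shallowest library in the cortical mCh neurons under Gq-CNO (library 3) and the deepest in the hippocampal GFP astrocytes under Gq-CNO (library 1). The labelled cell types were checked against summed marker levels. In the 18 mCh neuron libraries, 12 neuron markers summed to 936 to 3363 RPM, against 18277 to 60108 RPM for 8 oligodendrocyte markers, 4846 to 15191 RPM for 12 microglia markers and 5860 to 25078 RPM for 16 astrocyte markers, so the summed glial markers exceeded the neuronal ones in the libraries of these sorts. In the 24 GFP libraries, the neuron markers summed to 472 to 918 RPM and the astrocyte markers to 55064 to 137186 RPM. In the 6 mCh astrocyte libraries, the astrocyte markers summed to 2198 to 14967 RPM and the microglia markers to 5234 to 12892 RPM. Slc22a3, the targeted gene, had 0, 0 and 12 reads in the libraries labelled Slc22a3-cKO and 0 reads in each of the 3 flox controls, so it does not check that label.

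Summed over the 32 genes, the mCh neuron sorts stood above the GFP sorts and the cortex stood highest among them. The 6 cortical mCh neuron libraries had a median of 12416 RPM (11483 to 13649), hippocampal ones 9413 RPM (6932 to 12299) and olfactory bulb ones 4341 RPM (3774 to 8911). The highest olfactory bulb value belonged to Gq-Saline library 1, which was also the highest in neuron markers there, and the other 5 reached at most 4505 RPM. Camk2a alone made up a large part of the cortical and hippocampal sums. Its mean was 4788 RPM in the cortical, 3792 RPM in the hippocampal and 348 RPM in the olfactory bulb mCh neurons. In the GFP astrocytes with a Gq label the sums were 2189 RPM (2090 to 3021) in the olfactory bulb, 2540 RPM (2166 to 4009) in the cortex and 2492 RPM (2236 to 2984) in the hippocampus. The cortical maximum was Gq-Saline library 4, which also had 2728 RPM of microglia markers, against 121 to 363 RPM in the other 5. The mCh astrocytes had 697, 871 and 1754 RPM in the libraries labelled Slc22a3-cKO, against 6481, 6824 and 2669 RPM in the flox controls.

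**Figure D1:**
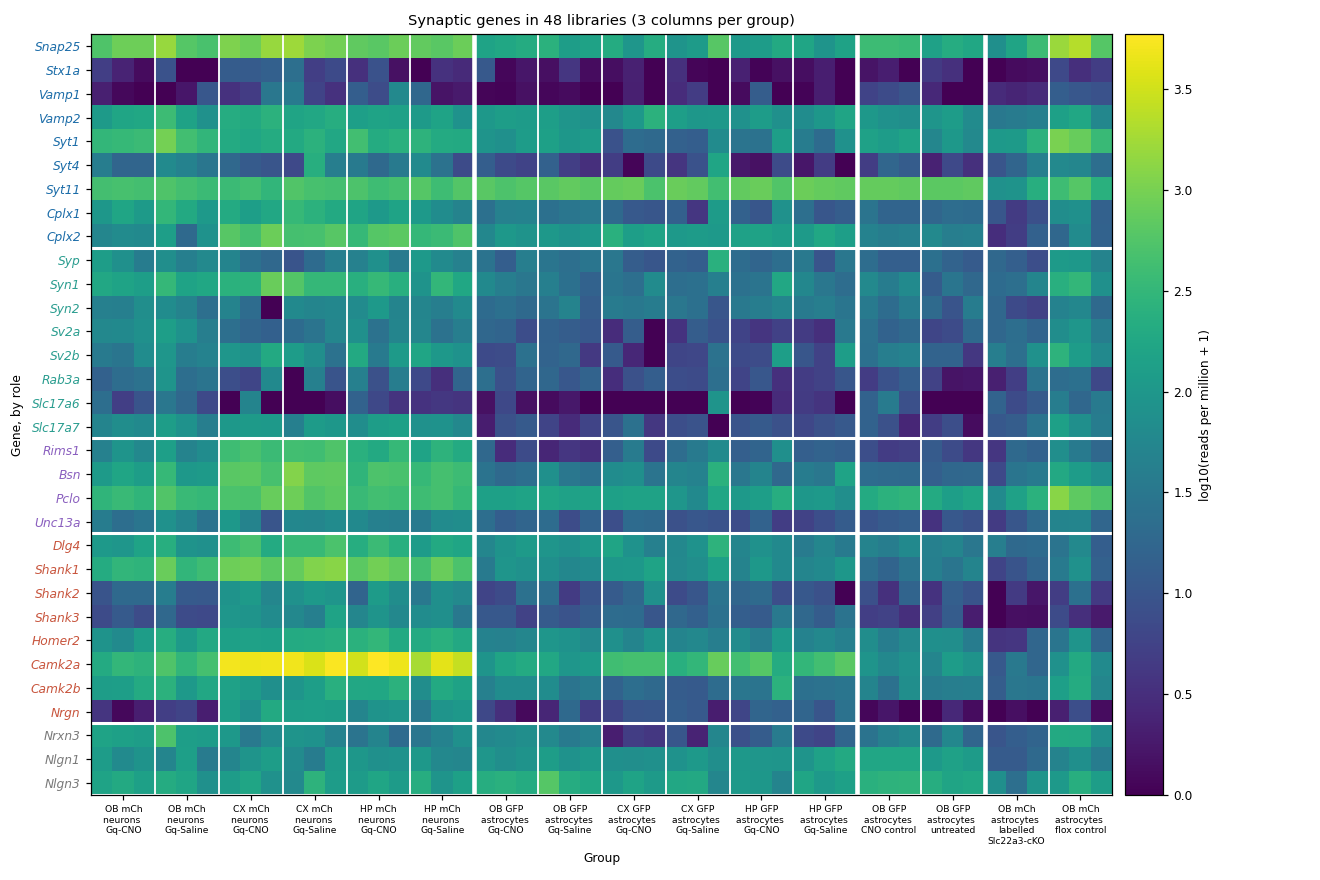
Level of each of the 32 genes (rows, in blocks by role) in each of the 48 libraries (columns, 3 per group, groups named below), coloured by log10 of RPM + 1. Camk2a is brightest in the cortical and hippocampal mCh neuron sorts, where its group means reach 4876 RPM, and Syt11 is bright in nearly the whole row.

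Per kilobase of exon, which allows genes to be compared, Camk2a led the mCh neuron sorts with a median of 466 RPM per kb, ahead of Snap25 (125), Syt11 (84.6), Cplx2 (82.2), Syn1 (74.6) and Cplx1 (70.5). In the 18 GFP libraries with a Gq label, Syt11 came first with 137 RPM per kb, followed by Camk2a (42.1), Vamp2 (26.5), Cplx2 (23.1) and Snap25 (22.5). Both rankings pool the regions and need not hold in each. In RPM, the ratio of Camk2a to Snap25 was 0.317 to 0.921 in olfactory bulb mCh neurons and 2.93 to 6.03 in cortical ones. In GFP astrocytes it was 0.577 to 0.982 in the olfactory bulb and 1.28 to 4.70 in the cortex. In the 6 mCh astrocyte libraries, Snap25 came first with 71.9 RPM per kb, followed by Syt11 (45.7) and Syt1 (37.8). Vamp1 was last in the mCh neurons (0.300) and the GFP libraries (0.0154), and Shank3 was last in the mCh astrocytes (0.0732).

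Among the SNARE genes, Snap25, which encodes a SNARE of the plasma membrane, had group means from 133.9 ± 40.97 RPM in hippocampal Gq-Saline GFP astrocytes to 1470 ± 815 RPM in the flox controls (SD, n = 3 in each group here and below). Stx1a, the syntaxin of the plasma membrane, stayed low, from 0.233 ± 0.208 RPM in the libraries labelled Slc22a3-cKO to 11.8 ± 1.16 RPM in cortical Gq-CNO mCh neurons. The vesicle SNAREs differed in level: Vamp1 reached at most 25.7 ± 28.5 RPM, in hippocampal Gq-CNO mCh neurons, and Vamp2 ran from 36.3 ± 4.65 RPM in the cKO-labelled libraries to 224.6 ± 34.3 RPM in cortical Gq-CNO mCh neurons. Syt1, the fast calcium sensor of release, ran from 15.6 ± 6.87 RPM in cortical Gq-CNO GFP astrocytes to 731 ± 342 RPM in the flox controls. Syt4, a synaptotagmin of dense-core and postsynaptic vesicles, ran from 1.47 ± 1.97 RPM in hippocampal Gq-Saline GFP astrocytes to 93.2 ± 123.2 RPM in cortical Gq-Saline mCh neurons, where the SD exceeded the mean. Syt11, a synaptotagmin that does not bind calcium, was lowest in the cKO-labelled libraries (133.1 ± 86.5 RPM) and highest in hippocampal Gq-Saline GFP astrocytes (767.5 ± 71.1 RPM). The complexins clamp and trigger the SNARE complex. Cplx1 ran from 6.75 ± 2.92 RPM to 262.6 ± 68.5 RPM and Cplx2 from 6.52 ± 6.2 RPM to 628 ± 202 RPM, both lowest in the cKO-labelled libraries and highest in cortical mCh neurons.

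Of the vesicle membrane genes, Syp (synaptophysin, an abundant membrane protein) had its highest mean in cortical Gq-Saline GFP astrocytes, 90.7 ± 134 RPM, from library 4 alone at 245.4 RPM, and its lowest, 12.6 ± 5.46 RPM, in the cKO-labelled libraries. The synapsins tether vesicles in the reserve pool. Syn1 ran from 18.9 ± 8.31 RPM in untreated GFP astrocytes to 440 ± 314 RPM in cortical Gq-CNO mCh neurons, and Syn2 from 9.29 ± 7.02 RPM in the cKO-labelled libraries to 74.4 ± 30.5 RPM in hippocampal Gq-CNO mCh neurons. The SV2 glycoproteins set the readiness of vesicles for release. Sv2a ran from 3.96 ± 1.07 RPM in hippocampal Gq-CNO GFP astrocytes to 84.1 ± 45.2 RPM in olfactory bulb Gq-Saline mCh neurons, and Sv2b from 4.10 ± 5.74 RPM in cortical Gq-CNO GFP astrocytes to 150.1 ± 107.1 RPM in the flox controls. Rab3a, the vesicle GTPase, ran from 1.97 ± 2.32 RPM in untreated GFP astrocytes to 45.6 ± 36.7 RPM in olfactory bulb Gq-Saline mCh neurons. Of the vesicular glutamate transporters, Slc17a6 (VGLUT2) had reads in 33 of 48 libraries and a highest mean of 30.1 ± 11.2 RPM in the flox controls, while Slc17a7 (VGLUT1) ran from 3.70 ± 3.31 RPM in untreated GFP astrocytes to 109.6 ± 35.2 RPM in hippocampal Gq-CNO mCh neurons.

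The active zone genes were lowest in GFP astrocyte groups. Rims1, which links vesicles to calcium channels, ran from 2.26 ± 0.729 RPM in olfactory bulb Gq-Saline GFP astrocytes to 463 ± 69.9 RPM in cortical Gq-Saline mCh neurons. Bsn (bassoon, a giant scaffold) ran from 16.1 ± 2.64 RPM in untreated GFP astrocytes to 859 ± 288 RPM in cortical Gq-Saline mCh neurons. Pclo (piccolo, its partner scaffold) ran from 92.4 ± 17.5 RPM in hippocampal Gq-Saline GFP astrocytes to 817 ± 379 RPM in the flox controls. Unc13a, the vesicle priming factor, ran from 6.72 ± 3.77 RPM in untreated GFP astrocytes to 57.3 ± 6.85 RPM in cortical Gq-Saline mCh neurons.

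Of the 8 postsynaptic genes, 7 had their lowest group mean in the cKO-labelled libraries. Camk2a, the main kinase subunit of excitatory synapses, ran from 19.6 ± 11.2 RPM to 4876 ± 141 RPM in cortical Gq-CNO mCh neurons. Nrgn (neurogranin, which binds calmodulin in dendrites) ran from 0.150 ± 0.259 RPM to 135.4 ± 59.7 RPM in the same cortical group. Dlg4 and the 3 Shank genes, which encode scaffold proteins, had their highest group mean in cortical Gq-Saline mCh neurons. Dlg4 (PSD-95) ran from 26.0 ± 12.5 RPM to 395.9 ± 86.2 RPM, and Shank1 from 9.92 ± 5.79 RPM to 1044 ± 245.5 RPM. Shank2 reached 93.3 ± 14.6 RPM and Shank3 84.4 ± 61.7 RPM there, from 1.37 ± 1.82 and 0.283 ± 0.246 RPM. Homer2, which ties Shank proteins to glutamate receptors, ran from 7.35 ± 7.85 RPM to 255.5 ± 61.0 RPM in hippocampal Gq-CNO mCh neurons. Camk2b, the second kinase subunit, was lowest in cortical Gq-Saline GFP astrocytes (14.4 ± 5.52 RPM) and highest in hippocampal Gq-CNO mCh neurons (205.2 ± 48.5 RPM).

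The adhesion genes divided. Nrxn3, a presynaptic neurexin, ran from 2.67 ± 1.43 RPM in cortical Gq-CNO GFP astrocytes to 259.8 ± 233.6 RPM in olfactory bulb Gq-Saline mCh neurons. The neuroligins, its partners on the receiving cell, had their highest group means in GFP astrocytes of the olfactory bulb. Nlgn1 reached 168.4 ± 1.79 RPM in the CNO-control libraries. In GFP astrocytes with a Gq label its olfactory bulb means were 83.7 RPM (Gq-CNO) and 102.4 RPM (Gq-Saline). For the same labels the hippocampus was higher (95.6 and 143.7 RPM) and the cortex lower (74.2 and 87.4 RPM). Nlgn3 reached 328 ± 227 RPM in the Gq-Saline libraries, with 589.2 RPM in library 1 and 218.9 and 175.3 RPM in the others, while the CNO-control libraries had 244.6, 274.8 and 280.1 RPM. The lowest means of Nlgn1 and Nlgn3, 13.4 ± 4.31 and 61.6 ± 34.7 RPM, were both in the cKO-labelled libraries.

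In the mCh neuron sorts, which share a table and a normalization, the olfactory bulb was lower than the cortex in postsynaptic and active zone genes and higher in a few vesicle genes. Of 32 genes tested, 11 were lower and 5 higher at an adjusted p under 0.05 (limma on log2(value + 1), with Benjamini-Hochberg adjustment over all genes, as in all adjusted p-values below unless another tool is named). Over all genes tested, 2.99% were called lower and 5.58% higher. The median log2 difference of the members was -0.51, against 0.39 over all genes. The shift of all genes depended on the fit, at 0.17 in edgeR, and so did the split of calls, with 690 genes higher and 370 lower in limma, 424 and 367 in edgeR, and 706 and 583 in DESeq2. In a bulk sample, fewer cells of a type and less RNA per cell cannot be told apart.

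Camk2a had the clearest difference, at 204, 306 and 537 RPM (lowest, median and highest of 6 libraries, as below) in the olfactory bulb and 3664, 4863 and 5574 RPM in the cortex. No olfactory bulb library came near a cortical one, and the log2 difference was -3.87 (SE 0.18, adjusted p = 1.47e-18). Nrgn had 0.193, 1.95 and 4.93 RPM in the olfactory bulb and 78.1, 131 and 197 RPM in the cortex. The highest olfactory bulb library lay below the lowest cortical one, and the log2 difference was -5.92 (SE 0.53). Nrgn passed the filter only through the cortical and hippocampal libraries, where it is high. Its call is therefore given as a description and no p-value is read from it. Cplx2 had 18.4, 61.9 and 129 RPM in the olfactory bulb and 435, 541 and 838 RPM in the cortex (log2 difference -3.27, SE 0.31). Rims1 had 44.6, 62.0 and 135 RPM in the olfactory bulb and 368, 422 and 543 RPM in the cortex (log2 difference -2.70, SE 0.27). The groups did not overlap for either gene, and the partner complexin Cplx1 did not pass the test. Bsn had 102, 120 and 329 RPM in the olfactory bulb and 465, 676 and 1191 RPM in the cortex (log2 difference -2.29, SE 0.25). Shank3 had 5.74, 6.41 and 17.7 RPM in the olfactory bulb and 41.9, 77.4 and 155 RPM in the cortex (log2 difference -3.20, SE 0.46). For these too the ranges were apart. Members named in this and the later comparisons were picked by p on the same values, so a lack of overlap is no further support. The share of all genes without overlap is not given.

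The other members called lower were Shank1 (log2 difference -1.40), Shank2 (-2.48), Dlg4 (-1.67), Pclo (-0.85) and Syn1 (-1.14), and of these the ranges of Shank2 alone did not overlap. In all, 6 of 8 postsynaptic genes were called lower, Nrgn among them as a description, as were 3 of 4 active zone genes. Homer2 and Camk2b did not pass. Snap25 had 495, 726 and 1545 RPM in the olfactory bulb and 875, 1090 and 1661 RPM in the cortex, which missed the threshold (log2 difference -0.65, adjusted p = 0.0536). As a ratio to Snap25 in the same library, given as a description, Camk2a stood at 0.317 to 0.921 in the olfactory bulb, 2.93 to 6.03 in the cortex and 2.59 to 9.38 in the hippocampus. The same ratio for Nrgn was 0.000223 to 0.00839 in the olfactory bulb, 0.0788 to 0.135 in the cortex and 0.0445 to 0.138 in the hippocampus.

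The 5 genes that were higher in the olfactory bulb than in the cortex were Syt1, Nrxn3, Sv2a, Syp and Slc17a6. Syt1 had 305, 350 and 945 RPM in the olfactory bulb and 169, 197 and 267 RPM in the cortex (log2 difference 1.00, SE 0.24, adjusted p = 0.00627), with no overlap. Nrxn3 had 121, 134 and 529 RPM in the olfactory bulb and 32.1, 74.0 and 102 RPM in the cortex (log2 difference 1.34, SE 0.39, adjusted p = 0.0252). The highest olfactory bulb value of both belonged to Gq-Saline library 1. Sv2a had 40.2, 68.3 and 131 RPM in the olfactory bulb and 13.2, 21.7 and 52.6 RPM in the cortex (log2 difference 1.55, SE 0.43). Syp had 37.3, 66.2 and 123 RPM in the olfactory bulb and 8.63, 21.9 and 48.5 RPM in the cortex (1.43, SE 0.44), and edgeR did not call it (adjusted p = 0.0778). Slc17a6 had 4.04, 13.2 and 30.2 RPM in the olfactory bulb and 0, 0 and 48.9 RPM in the cortex (3.56, SE 1.05). The highest Slc17a6 value of both regions was in a cortical library, and neither edgeR (adjusted p = 0.146) nor DESeq2 (adjusted p = 0.0654) called the gene. The ranges of these 3 genes overlapped. Without olfactory bulb Gq-Saline library 1, an alternative chosen after seeing the data, 13 members were lower and 1 was higher. The share of all genes called without it is not given. Syt1 kept its call (log2 difference 0.77, adjusted p = 0.0355), while adjusted p-values were 0.122 for Nrxn3, 0.0707 for Sv2a, 0.0832 for Syp and 0.0689 for Slc17a6. Sv2a also lost its call without Gq-CNO library 3 of the olfactory bulb, and Nrxn3, Slc17a6 and Syp lost theirs without any of 6, 6 and 7 of the 12 libraries.

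**Figure D2:**
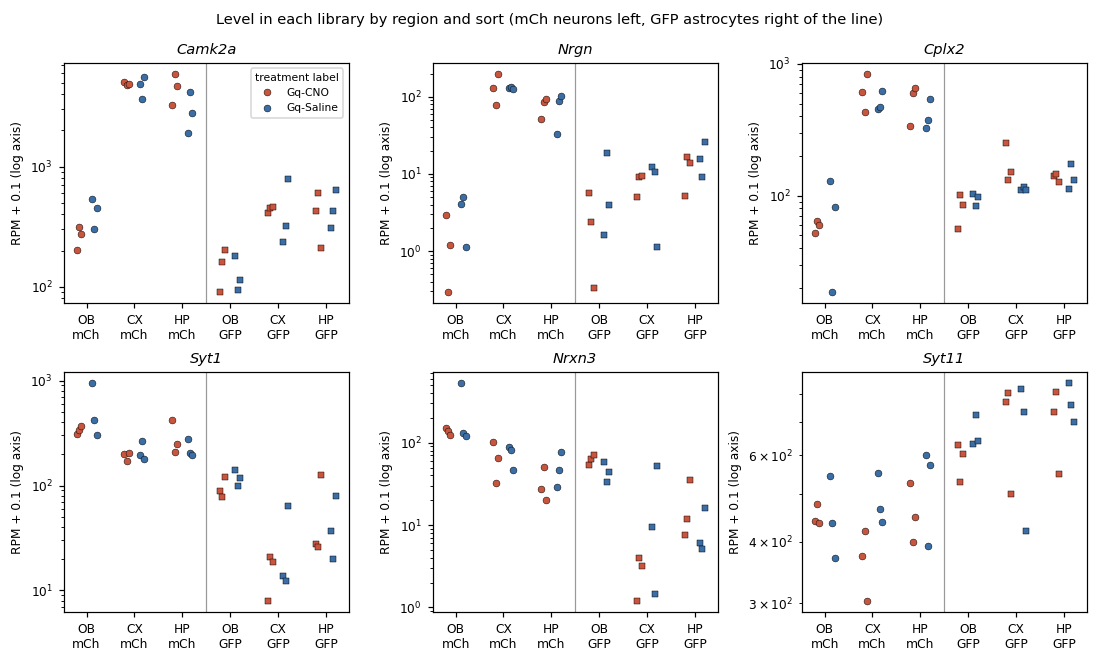
RPM + 0.1 on a log axis in each library for 6 genes, with mCh neuron sorts (circles) left of the line and GFP astrocyte sorts (squares) right of it, in the order olfactory bulb, cortex and hippocampus, coloured by treatment label. Camk2a, Nrgn and Cplx2 are low in the olfactory bulb mCh sorts (Camk2a at 204 to 537 RPM, against 3664 to 5574 RPM in the cortex), Syt1 and Nrxn3 are high there, and Syt11 is higher in the GFP sorts.

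Set against the hippocampus, a comparison that shares its olfactory bulb libraries with the one above, 9 members were lower in the olfactory bulb and 1 was higher, against 1.62% lower and 2.29% higher over all genes. Camk2a had 1922, 3745 and 5904 RPM in the hippocampus (log2 difference of olfactory bulb from hippocampus -3.43, SE 0.18, adjusted p = 9.02e-17). Hippocampal Cplx2 was at 325, 457 and 657 RPM (log2 difference -2.96), Nrgn at 33.0, 85.9 and 102 RPM (-5.03) and Rims1 at 154, 222 and 330 RPM (-1.72). None of these 4 overlapped with the olfactory bulb values above, which again is no further support. Nrgn, among the 9 called lower, passed the filter only through regions where it is high, so its call is again a description. Hippocampal Bsn was at 296, 419 and 522 RPM, which overlapped with the bulb in its range (log2 difference -1.49), and Shank3 at 31.0, 61.9 and 89.7 RPM, which did not (-2.80). Shank1 (-0.91), Shank2 (-1.70) and Homer2 (-0.92) completed the lower set. Homer2 had 63.2, 120 and 221 RPM in the olfactory bulb and 189, 226 and 315 RPM in the hippocampus. Nrxn3 was the gene called higher, as hippocampal libraries had 19.8, 37.5 and 77.7 RPM (log2 difference 2.14, SE 0.39, adjusted p = 0.000354). Dlg4 (-0.81) and Syt1 (0.71) did not pass, both with an adjusted p of 0.106. The calls of Homer2 and Shank2 were lost without any of 6 and 7 of the 12 libraries, and the other 8 calls held without each.

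**Figure D3:**
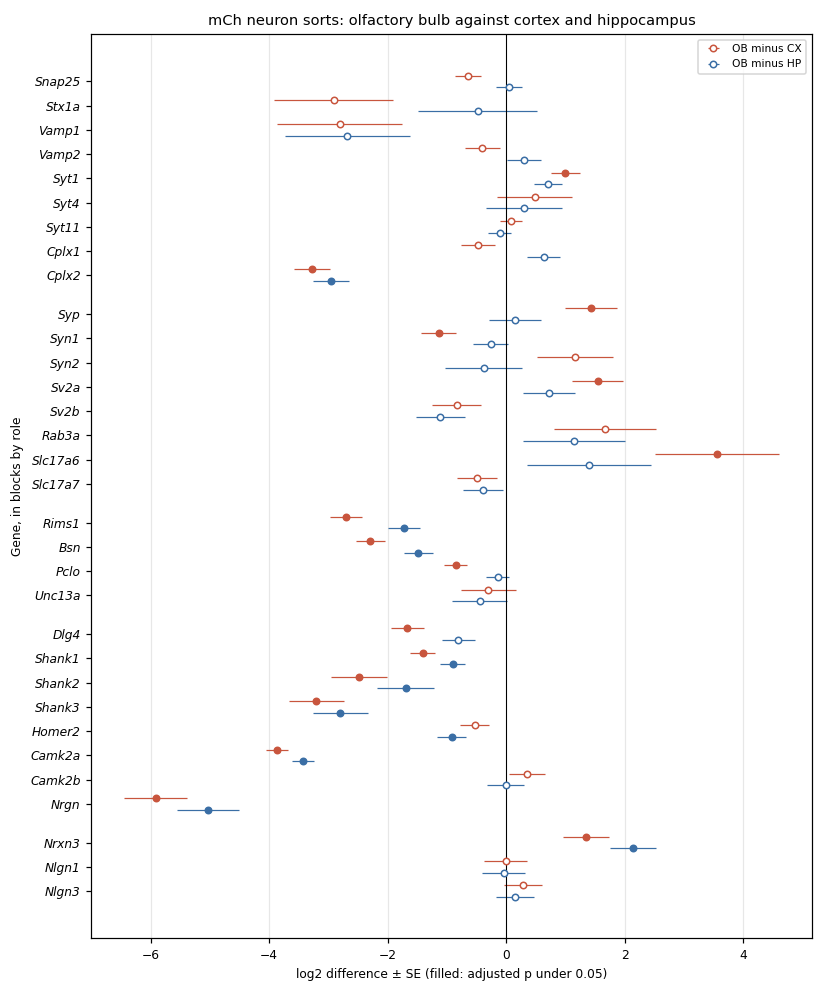
Log2 difference with its SE for the 32 genes, in blocks by role, for the mCh neuron sorts of the olfactory bulb minus cortex and minus hippocampus, with filled points at an adjusted p under 0.05. Nrgn lies farthest to the left at -5.92 and -5.03, and Nrxn3 is filled on the right in both at 1.34 and 2.14. The Nrgn call is a description, since the gene passed the filter only through the cortical and hippocampal libraries.

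Between cortex and hippocampus, 0 of the 32 genes were called by limma, against 0.388% of all genes. Unadjusted p-values were under 0.05 for 15 of 32 members, against 1326 of 12358 genes. edgeR called 0 members, whereas DESeq2 called 3, against 90 genes higher and 95 lower of the 12358. Cplx1 had 129, 199 and 332 RPM in the cortex and 47.6, 107 and 158 RPM in the hippocampus (log2 difference 1.108, adjusted p = 0.076). Rims1 differed by 0.98 (adjusted p = 0.11) and Pclo by 0.70 (adjusted p = 0.124), and neither overlapped. Pclo had 481, 613 and 872 RPM in the cortex and 332, 395 and 454 RPM in the hippocampus. Each of these 3 was higher in the cortex.

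Of 28 further postsynaptic genes, 9 were lower and 0 higher in olfactory bulb than cortical mCh neurons. Cnksr2 fell by 3.01, Dlg2 by 2.34, Sipa1l1 by 1.59 and Dlgap3 by 3.53 on the log2 scale, all 4 encoding postsynaptic density scaffolds or partners of them. Against the hippocampus 5 were lower and 0 higher, among them Cnksr2 (-2.82), Agap2 (-1.52), Dlgap3 (-2.56) and Dlg2 (-1.04). Of 40 further presynaptic genes tested, 3 were higher and 4 lower against the cortex. Synpr (synaptoporin) was higher by 5.23, while Unc13c (-2.28), Rph3a (-2.45) and Rims2 (-1.56), which act in priming and docking, were lower. Against the hippocampus 1 was higher and 4 lower. Slc32a1, the vesicular GABA transporter, was higher by 3.61, and Unc13c (-1.40), Rph3a (-1.80) and Doc2b (-3.72) were lower. Between cortex and hippocampus, Sipa1l1 (1.16) and Dlg2 (1.30) were called higher in the cortex.

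Cell type markers moved with these regions. Of 12 olfactory bulb interneuron and neuroblast markers, 11 were called higher in the olfactory bulb than in the cortex, with a median of 3.59, and their sum was 695 to 1705 RPM in the olfactory bulb, 215 to 481 RPM in the cortex and 146 to 248 RPM in the hippocampus. Astrocyte markers were called higher in 12 of 16 (median 1.497) and microglia markers lower in 6 of 12 (median -0.66). Of 12 neuron markers, 4 were called lower and 0 higher (median -0.42), and their sum was 936 to 2494 RPM in the olfactory bulb, 2592 to 3363 RPM in the cortex and 1517 to 2669 RPM in the hippocampus. Their part in the differences of the members was not tested.

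In the GFP astrocyte sorts the regions come from separate tables, so region and table cannot be told apart, and reads recovered from the tables were scaled together. Of 32 genes, 3 were lower and 2 higher in the olfactory bulb than in the cortex, against 1.8% lower and 3.22% higher over all genes. The median over all genes was 0.40 in limma and 0.10 in edgeR. All genes divided into 416 higher and 233 lower in limma, 255 and 277 in edgeR, 450 and 432 in DESeq2, and 502 and 153 when scaled by library totals. Camk2a had 89.7, 137 and 202 RPM in the olfactory bulb and 238, 431 and 785 RPM in the cortex (log2 difference -1.80, SE 0.30, adjusted p = 0.000657), with no overlap. Syt1 had 77.3, 109 and 140 RPM in the olfactory bulb and 7.77, 16.1 and 64.2 RPM in the cortex (log2 difference 2.39, SE 0.51, adjusted p = 0.00618), again apart. Nrxn3 had 33.4, 56.1 and 70.9 RPM in the olfactory bulb and 1.08, 3.46 and 52.0 RPM in the cortex. Its ranges overlapped through cortical Gq-Saline library 4, and the log2 difference was 3.30 (SE 0.73, adjusted p = 0.00813). Rims1 had 1.53, 2.63 and 17.6 RPM in the olfactory bulb and 6.15, 27.25 and 62.5 RPM in the cortex (log2 difference -2.71, adjusted p = 0.0183). Cplx2 had 55.6, 91.5 and 103 RPM in the olfactory bulb and 109, 123 and 249 RPM in the cortex (log2 difference -0.84, adjusted p = 0.0312). Here too a lack of overlap is no further support.

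Camk2a, Syt1 and Nrxn3 kept their calls without each of the 12 libraries in turn. Rims1 lost its call without cortical Gq-CNO library 2 or olfactory bulb Gq-CNO library 2 (adjusted p = 0.0576 to 0.0626), and Cplx2 lost its call without any of 8. Without the 4 libraries numbered 4 in the cortical and hippocampal tables, left out together after seeing the data, 4 members were higher and 5 lower. The matching share of all genes is not given.

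Against the hippocampus, Camk2a and Nlgn3 were the members called, with 1.42% of all genes lower and 2.24% higher. Hippocampal Camk2a was at 208, 428 and 642 RPM (log2 difference of olfactory bulb from hippocampus -1.71, SE 0.30, adjusted p = 0.0011), apart from the olfactory bulb values. Nlgn3 had 175, 221 and 589 RPM in the olfactory bulb and 48.9, 107 and 166 RPM in the hippocampus (log2 difference 1.17, SE 0.30, adjusted p = 0.0281), also apart. Rims1 came next in p (log2 difference -2.36, adjusted p = 0.0533) and edgeR called it, with Cplx2, among 4 members. All genes divided into 289 higher and 183 lower in limma and 254 and 242 in edgeR. Nlgn3 lost its call without any of 7 of the 12 libraries, and 7 members were called without the 4 libraries numbered 4. For that count too the share of all genes is not given. Between cortex and hippocampus, limma called 0 members (0.147% of all genes), 3 had an unadjusted p under 0.05 (1231 of 12921 genes), edgeR called 0 and DESeq2 called 1 (99 genes higher and 115 lower). The 3 were Dlg4 (log2 difference 0.97, adjusted p = 0.395), Camk2b (-1.24, adjusted p = 0.444) and Syt1 (-1.16, adjusted p = 0.478).

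Further presynaptic genes differed between the GFP sorts too, 6 of 40 higher and 3 lower in the olfactory bulb than in the cortex. Unc13c was lower by 2.53 on the log2 scale and Rph3a by 4.64, and Cadps2, which primes dense-core vesicles, was higher by 3.89. Among those called against the hippocampus were Rph3a (-4.62), Cadps2 (4.76) and the kinase subunit gene Camk2d (1.83). Unc13c was higher in the cortex than in the hippocampus by 2.54. The olfactory bulb interneuron markers were called higher in 3 of 11 tested against the cortex (median 3.70), and neuron markers in 0 of 12 (median -0.05). Astrocyte markers were called lower in 7 of 16 and higher in 2 (median -0.26). Their part was not tested.

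Between the sorts, most members stood higher in mCh neurons than in GFP astrocytes of the same region. The sort and the table cannot be told apart. In the olfactory bulb 15 members were called higher and 1 lower, against 9.85% and 5.3% of all genes. In the cortex 23 were higher and 1 lower, against 32% of all genes called in either direction, and in the hippocampus 23 and 1, against 15.9% and 11.3%. The cortical share is not split by direction here. Some members called higher lay near the floor in GFP astrocytes, so their calls are given as descriptions. Among them were Stx1a and Vamp1 in the cortex (GFP means 0.670 and 1.13 RPM) and Vamp1 and Syt4 in the hippocampus (2.21 and 1.97 RPM). edgeR called Syt4, but neither Stx1a (adjusted p = 0.0509) nor Vamp1 (0.0761 and 0.0602). The members' median log2 difference was 1.30 in the olfactory bulb, 2.42 in the cortex and 2.25 in the hippocampus, while the median over all genes lay between -0.05 and 0.04.

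Rims1 was the clearest of the olfactory bulb, with 44.6, 62.0 and 135 RPM in mCh neurons and 1.53, 2.63 and 17.6 RPM in GFP astrocytes (log2 difference 4.08, SE 0.46, adjusted p = 8.24e-09). Shank1 had 210.5, 304 and 822 RPM in mCh neurons and 33.7, 68.4 and 91.5 RPM in GFP astrocytes (log2 difference 2.44, SE 0.28). Slc17a7 had 40.2, 65.1 and 125.4 RPM in mCh neurons and 1.00, 4.87 and 10.6 RPM in GFP astrocytes (log2 difference 3.94, SE 0.64). These ranges did not overlap, nor did those of Snap25 (2.10), Bsn (2.28) and Syn1 (2.44). In the cortex Camk2a led, at 3664, 4863 and 5574 RPM in mCh neurons and 238, 431 and 785 RPM in GFP astrocytes (log2 difference 3.38, SE 0.26, adjusted p = 5.8e-14). Shank1 differed there by 3.07, Rims1 by 4.14, Bsn by 3.25, Syt1 by 3.34 and Pclo by 2.25, again with no overlap. In the hippocampus Camk2a had 1922, 3745 and 5904 RPM in mCh neurons and 208, 428 and 642 RPM in GFP astrocytes (log2 difference 3.01, SE 0.26). Shank1 (3.18), Bsn (3.18), Rims1 (3.49), Snap25 (2.35) and Pclo (1.64) were likewise apart. As the members were picked by p on these values, their lack of overlap is no further support.

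Syt11 was the member called lower in the mCh neurons of each region. In the olfactory bulb it had 370, 440 and 544 RPM in mCh neurons and 529, 631 and 723 RPM in GFP astrocytes (log2 difference -0.50, SE 0.16, adjusted p = 0.0215). In the cortex it had 303, 430 and 552 RPM in mCh neurons and 421, 752 and 817 RPM in GFP astrocytes (-0.78, adjusted p = 9.66e-05). In the hippocampus it had 393, 488 and 601 RPM in mCh neurons and 551, 748 and 842 RPM in GFP astrocytes (-0.70, adjusted p = 0.000515). The ranges overlapped in each region, and the olfactory bulb call was lost without any of 3 libraries (GFP Gq-CNO 1, GFP Gq-Saline 2 and mCh Gq-Saline 3). Its ratio to Snap25 was 0.198 to 0.815 in the mCh neurons and 0.685 to 9.20 in the GFP astrocytes.

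Some members did not follow. Nlgn1 differed by -0.34, -0.27 and -0.71 and Nlgn3 by -0.78, -0.14 and 0.25 in olfactory bulb, cortex and hippocampus, and none of the 6 passed the test. Vamp2, Syp, Syn2 and Rab3a passed in none of the regions. Nrgn, Cplx2 and Shank3 were called higher in cortical mCh neurons (4.17, 1.88 and 2.06) and hippocampal ones (2.33, 1.61 and 1.66), while in the olfactory bulb their differences were -0.72, -0.58 and -0.14 and did not pass. Of 41 further presynaptic genes tested, 16 were called higher and 1 lower in the olfactory bulb, and of 28 postsynaptic genes 6 and 1. Dlg2 was higher by 2.08, 4.16 and 3.05 in olfactory bulb, cortex and hippocampus. Snap91 was higher by 2.47 in the olfactory bulb and 3.79 in the cortex. Camk2g, a kinase subunit gene of wide expression, was lower in all 3 regions (-1.30, -2.20 and -2.26).

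**Figure D4:**
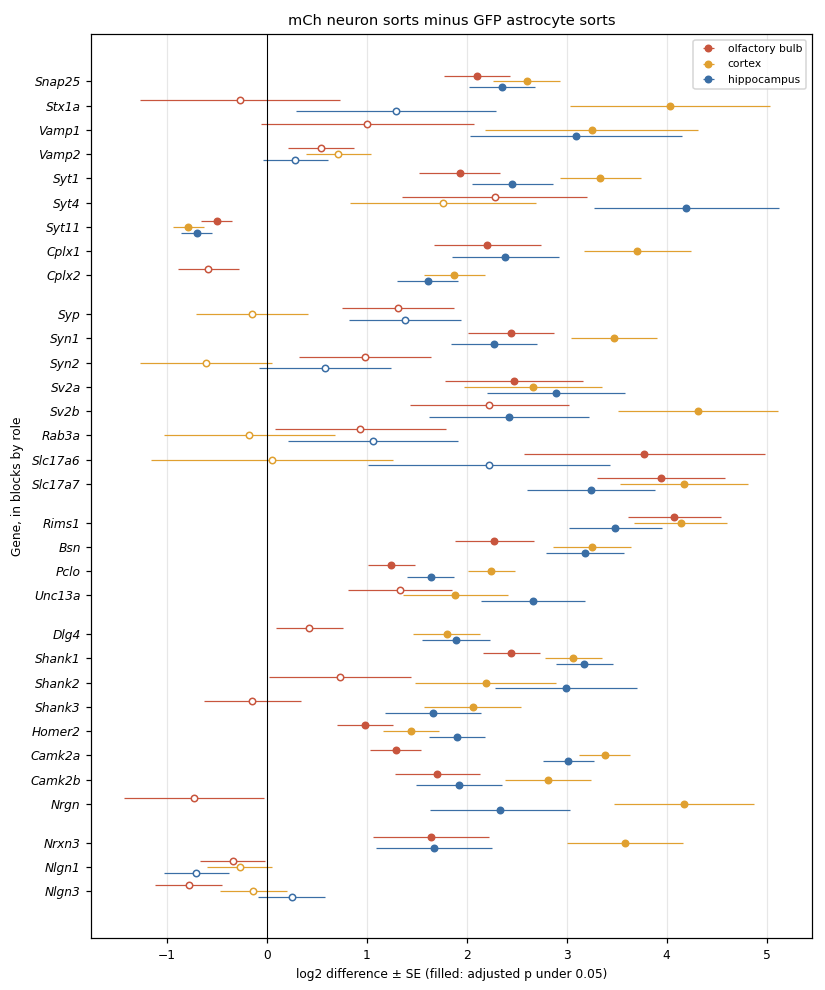
Log2 difference with its SE of mCh neurons minus GFP astrocytes for the 32 genes, in blocks by role, in olfactory bulb, cortex and hippocampus, with filled points at an adjusted p under 0.05. Most points lie right of 0, and Syt11 is filled left of 0 in all 3 regions, at -0.50, -0.78 and -0.70. The cortical calls of Stx1a and Vamp1 and the hippocampal calls of Vamp1 and Syt4 are descriptions, since their GFP levels lie near the floor.

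Markers of several cell types moved with the sort. All 12 microglia markers were called higher in mCh neurons of each region, with medians of 6.53, 5.96 and 5.64 in olfactory bulb, cortex and hippocampus. All 8 oligodendrocyte markers were called higher, with medians of 4.60, 4.14 and 4.61. Neuron markers were called higher in 6, 10 and 8 of 12, with medians of 2.08, 2.87 and 2.35, and astrocyte markers lower in 15, 16 and 16 of 16. What part each cell type has in the members' differences was not tested.

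Gq-CNO was set against Gq-Saline in each sort, although the labels do not say which cells bear the receptor. Across 3 regions and 2 sorts, 0 members were called by limma, edgeR or DESeq2 in any of the 6 comparisons. Over all genes limma called 0.00847% in olfactory bulb GFP astrocytes and 0% in the other 5. Unadjusted p-values were under 0.05 for 1 of 29 members tested in olfactory bulb GFP astrocytes, 0 of 29 in cortical and 1 of 29 in hippocampal ones. In mCh neurons the counts were 3 of 29 in the olfactory bulb, 1 of 31 in the cortex and 3 of 30 in the hippocampus. Over all genes these were 564 of 11810, 142 of 9978 and 234 of 11519 in the GFP astrocytes of olfactory bulb, cortex and hippocampus, and 556 of 10492, 428 of 9392 and 445 of 9808 in the mCh neurons. Stx1a and Vamp1 did not pass the filter on low values (10 or more in at least 3 libraries) in any GFP comparison nor in olfactory bulb mCh neurons. Slc17a6 did not pass it in olfactory bulb or cortical GFP astrocytes or in cortical mCh neurons, Syt4 in hippocampal GFP astrocytes, Nrgn in olfactory bulb mCh neurons, and Stx1a and Slc17a6 in hippocampal mCh neurons. These missed tests do not show that levels were equal. The members named below have the smallest p on these values, so a lack of overlap among them is no further support. The share of all genes without overlap is not given.

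In olfactory bulb mCh neurons, 4 of 29 members had a higher level with Gq-CNO, with a median log2 difference of -0.36, against 0.03 over all genes. Shank1 had 210.5, 305.6 and 287.5 RPM with Gq-CNO and 821.9, 303.1 and 397.0 RPM with Gq-Saline (log2 difference -0.83, SE 0.31, adjusted p = 0.9). Homer2 had 84.6, 63.2 and 125.8 RPM with Gq-CNO and 221.1, 114.0 and 190.4 RPM with Gq-Saline (-0.97, SE 0.37). Camk2a had 203.9, 313.1 and 276.3 RPM with Gq-CNO and 537.5, 299.6 and 455.5 RPM with Gq-Saline (-0.71, SE 0.29). All 3 overlapped, and the highest saline value was library 1 each time. Neuron markers were lower in 9 of 12 (median -0.65) and astrocyte markers higher in 15 of 16 (median 0.55), with 0 of either called, and their part was not tested.

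In hippocampal mCh neurons the balance lay the other way, with 21 of 30 members higher and a median of 0.27, against 0.01 over all genes. Camk2a had 3287, 5904 and 4658 RPM with Gq-CNO and 1922, 4202 and 2780 RPM with Gq-Saline (log2 difference 0.63, SE 0.23, adjusted p = 0.99). Dlg4 had 221.5, 366.2 and 234.7 RPM with Gq-CNO and 117.6, 193.8 and 161.2 RPM with Gq-Saline (0.75, SE 0.34). Cplx1 had 158.0, 107.9 and 150.6 RPM with Gq-CNO and 105.5, 68.2 and 47.6 RPM with Gq-Saline (0.93, SE 0.42). Dlg4 and Cplx1 did not overlap, and Camk2a did. Neuron markers were higher in 7 of 12 (median 0.29).

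In cortical mCh neurons 10 of 31 members were higher, with a median of -0.21, against -0.06 over all genes. Syn2 had 47.3, 20.4 and 0 RPM with Gq-CNO and 60.4, 50.6 and 55.4 RPM with Gq-Saline (log2 difference -2.97, SE 1.28, adjusted p = 0.967). The 0 is from the shallowest library of the study. Bsn had 640.4, 663.9 and 464.8 RPM with Gq-CNO and 1191, 688.8 and 695.9 RPM with Gq-Saline (-0.58, SE 0.29), and Cplx1 came next by p (-0.67).

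In the GFP astrocytes the members were balanced, with 16, 15 and 15 of 29 higher in olfactory bulb, cortex and hippocampus and medians of 0.02, 0.02 and 0.01. In the olfactory bulb Homer2 had 45.3, 43.9 and 52.0 RPM with Gq-CNO and 96.4, 83.2 and 58.0 RPM with Gq-Saline (log2 difference -0.71, SE 0.28, adjusted p = 0.996), with no overlap. Syn1 (0.81) and Bsn (-0.78) overlapped. In the hippocampus Nlgn3 had 105.3, 99.0 and 48.9 RPM with Gq-CNO and 165.5, 109.4 and 138.8 RPM with Gq-Saline (-0.77, SE 0.35, adjusted p = 0.976), with no overlap. Pclo had 109.8, 127.8 and 226.1 RPM with Gq-CNO and 99.1, 105.5 and 72.5 RPM with Gq-Saline (0.69), also apart, and Shank2 came next by p (2.79, SE 1.72). In the cortex Cplx2 had 249.1, 130.3 and 150.7 RPM with Gq-CNO and 109.4, 115.3 and 109.8 RPM with Gq-Saline (0.64, SE 0.36, adjusted p = 0.91), again apart, followed by Syt4 (-2.86) and Rims1 (-1.28). Slc17a6 had 0 reads in the 3 cortical Gq-CNO libraries and 263 in the Gq-Saline libraries, all of them in library 4 (89.4 RPM), so the gene was not tested. Against a floor of 3 reads over the group, its pooled level was at least 96.1-fold lower with Gq-CNO, and it was at 0 in both groups without the libraries numbered 4.

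Between regions, the Gq-CNO effects of the members did not differ at an adjusted p under 0.05 in any of 6 tests of the difference itself. The smallest unadjusted p was for Camk2a in mCh neurons, whose effect was lower in the olfactory bulb than in the hippocampus by 1.34 on the log2 scale (difference -1.34, SE 0.36, adjusted p = 0.999, limma).

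CNO-control and untreated GFP astrocytes from the olfactory bulb, neither with a Gq label, differ in the CNO label. Snap25, Syn1 and Slc17a6 were called higher, 3 of 30 members tested, against 5.29% of all genes higher and 6.88% lower (12.2% in either direction). The 3 include Slc17a6, whose call is only a description (below), and a count this small is near the share over all genes. It is not read as a result about the members. The number of members called was 6 in DESeq2, in which 837 of all genes were higher and 1145 lower, and 6 when scaled by library totals. It was 1 without any one of the CNO-control libraries, 5 without untreated library 1 or 2 and 2 without untreated library 3. Stx1a and Nrgn did not pass the filter on low values. Slc17a6 had 14.4, 35.7 and 7.41 RPM with CNO-control and 0, 0 and 0 RPM in untreated mice, that is 454 reads against 0. Against a floor of 3 reads over the untreated group the level was at least 47.8-fold higher. The gene passed the filter only through the CNO-control libraries, where it is high, so its call is given as a description and no p-value is read from it. Snap25 had 381.9, 378.9 and 364.6 RPM with CNO-control and 142.1, 215.1 and 176.7 RPM in untreated mice (log2 difference of normalised values 0.83, SE 0.16, adjusted p = 0.00672), with no overlap. Syn1 had 58.3, 37.5 and 61.8 RPM with CNO-control and 11.4, 27.8 and 17.5 RPM in untreated mice (1.26, SE 0.38, adjusted p = 0.0463), also apart. The lack of overlap of Snap25 and Syn1 is no further support.

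Syt1 had 144.0, 122.4 and 153.5 RPM with CNO-control and 53.1, 101.5 and 58.7 RPM in untreated mice and missed the threshold (0.77, adjusted p = 0.062). Shank1 had 22.7, 15.3 and 27.5 RPM with CNO-control and 40.9, 28.4 and 48.6 RPM in untreated mice (-1.11, adjusted p = 0.0673). Vamp1 had 4.68, 6.18 and 8.81 RPM with CNO-control and 1.69, 0 and 0 RPM in untreated mice, and it too passed the filter only through the CNO-control libraries. Lrrtm2 (1.109), Gphn (1.15), Snap91 (1.78) and Rab3c (1.97) were called higher among further synaptic genes, 2 of 25 postsynaptic and 2 of 29 presynaptic ones tested. Neuron markers were called in 0 of 10 (median -0.06). Microglia markers were called lower in 9 of 12, with sums of 165 to 241 RPM in CNO-control and 635 to 759 RPM in untreated libraries, and depth was 6.62 to 8.58 M reads in CNO-control and 1.72 to 2.96 M reads in untreated libraries. The part of either was not tested.

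Snap25 kept its call without each of the 6 libraries. Syn1 lost its call without any of 5 of them and in edgeR (adjusted p = 0.0504). Slc17a6 was not tested without any CNO-control library, since fewer than 3 libraries then reach the minimum value. The split of all genes depended on the scaling, with 579 higher and 753 lower in limma and 1189 and 485 when scaled by library totals, which put the median log2 difference over all genes at 0.36, against 0.11 with the authors' normalization.

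In the mCh astrocyte sorts of the Slc22a3-FF mice, members stood lower in the libraries labelled Slc22a3-cKO. Of 30 tested, 29 had a lower value, with a median log2 difference of -2.05 against -0.10 over all genes, and 7 were called lower and 0 higher, against 1.17% lower and 1.37% higher over all genes. Unadjusted p-values were under 0.05 for 27, against 2482 of 13465 genes. The number of members called was 19 in DESeq2, 4 with a pseudocount of 0.1 and 2 with the replicate block. Shank3 and Nrgn did not pass the filter on low values. Dlg4 was the exception in direction (0.05). Over all genes 184 were called higher and 157 lower, against 497 and 657 in DESeq2 and 153 and 223 when scaled by library totals, which moved the median to -0.29. Nrxn3 had 8.86, 12.3 and 15.3 RPM in the cKO-labelled libraries and 195.1, 189.6 and 71.3 RPM in the flox controls (log2 difference -3.34, SE 0.46, adjusted p = 0.00374). It kept its call without each of the 6 libraries.

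Pclo had 62.0, 144.3 and 255.5 RPM in the cKO-labelled libraries and 1246, 679.5 and 526.3 RPM in the flox controls (log2 difference -2.34, SE 0.46, adjusted p = 0.026). Syp had 17.8, 13.1 and 6.94 RPM in the cKO-labelled libraries and 110.9, 101.9 and 47.9 RPM in the flox controls (-2.59, SE 0.51). Snap25 had 75.5, 161.0 and 379.7 RPM in the cKO-labelled libraries and 1601, 2212 and 597.0 RPM in the flox controls (-2.75, SE 0.55). In none of these did the groups overlap, and flox control library 3 was the lowest control in each. The members were picked by adjusted p on the same values, so the lack of overlap adds no support. Syt1 had 109.7, 113.1 and 268.0 RPM in the cKO-labelled libraries and 1037, 794.5 and 362.1 RPM in the flox controls (-1.97, SE 0.42). Syn1 had 20.1, 22.9 and 51.5 RPM in the cKO-labelled libraries and 234.8, 316.8 and 76.1 RPM in the flox controls (-2.44, SE 0.52). Camk2a was called with an adjusted p of 0.0496 (-2.29, SE 0.55), which was 0.0627 in edgeR. The closest pair was Syt1 in cKO-labelled library 3 and flox control library 3, at 268.0 and 362.1 RPM.

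**Figure D5:**
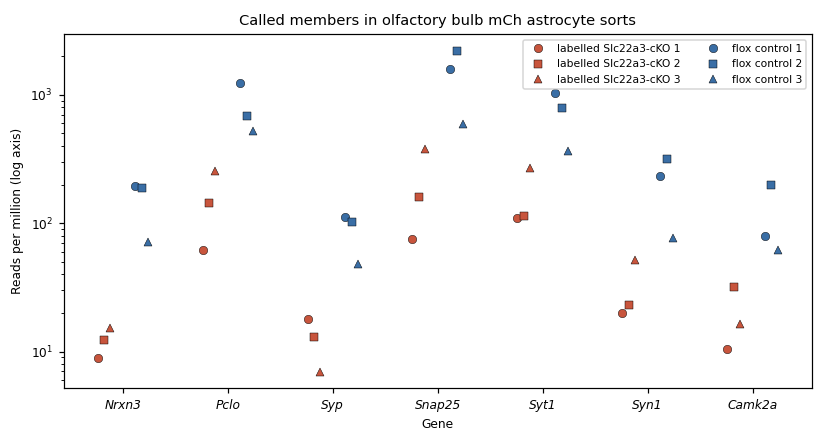
RPM on a log axis in each olfactory bulb mCh astrocyte library for the 7 members called, with the libraries labelled Slc22a3-cKO left of the flox controls and a symbol for each library number. The groups do not overlap in any of the 7, and the triangles (library 3) lie closest to each other in Snap25, Syt1 and Syn1. The 7 were picked by adjusted p on these values, so their lack of overlap is no further support.

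These calls rest on few libraries. The number of members called was 1 (Nrxn3) without any one of cKO-labelled libraries 1 and 2 and flox control libraries 1 and 2, 9 without flox control library 3 and 16 without cKO-labelled library 3. The share of all genes called under these omissions is not given, so the counts show stability and are not a result about the members. Of 38 further presynaptic genes tested 7 were called lower, among them Napb (-2.91), Ppfia2 (-2.07) and Cadps (-2.36), which act in SNARE recycling, the active zone and dense-core vesicle priming. Of 26 further postsynaptic genes 0 were called, and 9 had an unadjusted p under 0.05. Neuron markers were lower in 12 of 12 (median -2.43), summing to 198, 174 and 529 RPM in the cKO-labelled libraries and 1021, 933 and 499 RPM in the flox controls. The olfactory bulb interneuron markers were lower in 9 of 9 tested (median -2.63). Astrocyte markers were lower in 15 of 16 (median -0.85) and microglia markers higher in 10 of 12 (median 0.67). The part of these cell types in the members' differences was not tested.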

How the data were processed

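RNA from sorted mouse cells was measured in 48 libraries (polyA RNA, 10 ng of total RNA amplified with the Trio RNASeq System, per the labels' protocols). The deposited signal is, for each of 24421 gene entries, a read count divided by 1 size factor per library. The submitters' processing notes name FastQC 0.11.7, MultiQC 1.11, STAR 2.5.0a, DESeq2 1.30.1 and build mm10; the counter, its annotation and its use of strand are not given in the sources used here. Each of 6 tables was normalised separately by the authors, and 27 entries have date-like names and were matched to no gene. Dividing each column by its smallest positive value gave reads within 0.05 of a whole number for 100% of values, and these gave RPM and depth (0.228 to 24.7 M reads). Depth sets the precision of low genes, and floors cover counting error only.

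Comparisons within a table were fitted with limma 3.58.1 (trend) in R 4.3.3 on log2(value + 1), which understates changes of low genes, over genes at 10 or more in at least 3 libraries, with Benjamini-Hochberg adjustment over all genes tested. Comparisons across tables used recovered reads scaled by joint size factors. There were 17 comparisons and 6 tests of a difference between regions in the Gq-CNO effect. In region and sort comparisons, groups of 6 join both treatment labels. Alternatives were edgeR 4.0.16 (quasi-likelihood) and DESeq2 1.42.0 on recovered reads (estimates that did not converge left out), a pseudocount of 0.1, no filter, scaling by library totals, a replicate block and leaving out each library, and, added after seeing the data, leaving out the libraries named in the text. The fits were tested on simulated data. Exon lengths per gene came from GENCODE, and promoter windows from RefSeq.

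The members and gene lists were chosen with earlier results of these data known. Members are named with their range over the 16 groups and, in each comparison, where the adjusted p was under 0.05, or else the 3 with the smallest p; values per library are given for up to 6 members, and up to 4 further genes are named per list, of which some are not reported here. In the cortical and hippocampal GFP tables, 4 columns are numbered 4, whose group but not sample the labels give. Python 3.11.15, pandas 2.3.3 and matplotlib 3.10.9 made the summaries and figures.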

Additional observations from a re-analysis of the deposited data

How the results depend on the processing

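Of the 17 counts of members called, 8 were 0 in limma (the 6 Gq-CNO comparisons and both of cortex with hippocampus). For CNO-control against untreated mice, 6 members were called in DESeq2 and 6 when scaled by library totals. For the cKO-labelled libraries, 19 were called in DESeq2 and 4 with a pseudocount of 0.1. Between cortical and hippocampal sorts, DESeq2 called 3 members in mCh neurons and 1 in GFP astrocytes. In GFP astrocytes, 9 members were called between olfactory bulb and cortex without the 4 libraries numbered 4. Between olfactory bulb and hippocampus, 7 were called without them, 4 in edgeR, 5 in DESeq2 and 1 with no filter. The cause was not tested in any of these. Leaving out each library gave 0 to 0 calls in each of the 6 Gq-CNO comparisons and in both comparisons of cortex with hippocampus. It gave 1 to 5 for CNO-control, 1 to 16 for the cKO label, and, for olfactory bulb against cortex and hippocampus, 13 to 16 and 8 to 11 in mCh neurons and 4 to 5 and 1 to 3 in GFP astrocytes. Between the sorts it gave 13 to 16, 23 to 25 and 21 to 24 in olfactory bulb, cortex and hippocampus. Counts with libraries left out come without the share of all genes called, so they describe stability and are not a result about the members. Over single members, 2165 alternative values kept direction and side of the threshold, 174 fell below it and 10 passed it. In the shallowest libraries, low genes rest on a few reads.

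Groups share replicate numbers, but in 0 of 11 sets did every same-number pair correlate above 0.1 in its deviations from the group means (r from -0.09351 to 0.1321), so the numbers are not taken as pairs. With the replicate block, 2 members were called for the cKO label, 1 between cortical and hippocampal mCh neurons, and 3 between olfactory bulb and cortical GFP astrocytes, and the other counts stayed within 1.5 times.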
